A study of Mus musculus with 4 samples.

Results

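Butyrate, which gut bacteria make from dietary fibre, is the main fuel of the colonic epithelium, and 9 mouse genes of its handling are described here by the open chromatin at and around them. They were chosen by name, with earlier results of these data known, and no measured value entered the rule. They are the transporters Slc16a1 and Slc5a8, the fatty acid import gene Cpt1a, the oxidation genes Acads, Acadm and Acat1, the ketone body gene Bdh1 and the receptors Ffar2 and Hcar2. These are 9 of 21627 protein-coding genes on the chromosomes of the deposited list. A region was taken if a summit lay inside the gene or within 1 kb of it. A region was also taken if its strongest summit lay over 1 kb from every annotated gene end and its nearest protein-coding gene end, within 100 kb, was that of 1 of the 9. This gave 67 of 113404 regions.

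Butyrate enters colonocytes through proton-coupled and sodium-coupled monocarboxylate transporters, is activated to butyryl-CoA and is oxidised in mitochondria by the same β-oxidation steps as other short fatty acids. Its acetyl-CoA feeds respiration or the synthesis of ketone bodies, while G protein-coupled receptors at the cell surface sense short-chain fatty acids and β-hydroxybutyrate. Use of butyrate is known to be low in the crypt base and high in differentiated surface cells.

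Accessible DNA was cut and tagged with the Tn5 transposase (bulk ATAC-seq) in nuclei from colonic epithelial organoids of mice labelled WT. The 4 groups, with 1 library each, were colitis organoids with the AP-1 inhibitor T-5224 (10 µM, 24 h), colitis organoids with DMSO (0.1%, 24 h), control organoids with T-5224 (10 µM, 24 h) and control organoids with DMSO (0.1%, 24 h). All groups were grown in the same Wnt, R-spondin, Noggin and EGF medium, frozen alive after treatment and thawed, and the labels give them a single batch and no second culture or animal per group. Library names carry one code for both colitis libraries and another for both control libraries. The deposited values are 1 peak list for the series, with no value for any library, so neither T-5224 and DMSO nor colitis and control can be compared, and the sources used here do not give which libraries entered the list.

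Each value below is the authors' fold enrichment at a summit over an expected background, a value of the peak and not of a sample. It equals the pileup at the summit plus 1, divided by the background of 7.63 plus 1, and the 95% intervals are exact Poisson intervals of that pileup, which cover counting error only. The lowest pileup in the list was 17, so a place without a summit was not called at this depth and need not be closed. The depth of the libraries is unknown. As a check of the labelled cell type, 10 of 10 colonic epithelium marker genes had a summit within 1 kb of an outer end of the gene (3.83 to 59.1-fold), where 64.3% of all protein-coding genes had one. They ran from Krt8 (59.1-fold) through Vil1 (38.1-fold) and Epcam (33.6-fold) to Krt20 (16.8-fold), Car1 (8.93-fold) and Car4 (3.83-fold). None of 5 fibroblast and vessel markers had one, although 4 had a summit elsewhere in the gene. Of 8 leukocyte markers 4 had one. At an outer end Ly6g, at 22.0-fold (19.0 to 25.4), had a higher value than the epithelial genes Cdx1 (21.0-fold), Krt20, Car1 and Car4. Its interval overlapped those of Cdx1 (18.0 to 24.3) and Krt20 (14.2 to 19.8). Anywhere in the gene or within 1 kb, Car1 reached 47.7-fold and Krt20 24.5-fold, while Cdx1 and Car4 stayed below Ly6g.

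The promoters that carry the main contrasts are shown first. Each window runs from 250 bases before the annotated start to 50 after it, from RefSeq on build GRCm38.p6 (the coordinates of mm10), 5′ to 3′ on the strand of the gene. Capitals mark every match, on either strand, to the motif letters listed further below. Acadm held the strongest summit of the 9 genes, Slc16a1 had the most surrounding regions and the most CpG-rich window, Cpt1a showed that the outer end of a gene can miss its start, Bdh1 had an annotated start without a summit and an internal one with a summit, and Ffar2 had no summit.
Acadm, chr3:153944594-153944893, minus strand: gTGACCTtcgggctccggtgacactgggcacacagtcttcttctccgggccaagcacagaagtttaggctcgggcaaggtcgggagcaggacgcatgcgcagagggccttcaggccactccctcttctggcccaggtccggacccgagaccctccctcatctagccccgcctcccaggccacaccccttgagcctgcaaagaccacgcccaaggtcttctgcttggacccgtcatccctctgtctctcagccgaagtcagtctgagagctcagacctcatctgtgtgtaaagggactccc
Slc16a1, chr3:104638414-104638713, plus strand: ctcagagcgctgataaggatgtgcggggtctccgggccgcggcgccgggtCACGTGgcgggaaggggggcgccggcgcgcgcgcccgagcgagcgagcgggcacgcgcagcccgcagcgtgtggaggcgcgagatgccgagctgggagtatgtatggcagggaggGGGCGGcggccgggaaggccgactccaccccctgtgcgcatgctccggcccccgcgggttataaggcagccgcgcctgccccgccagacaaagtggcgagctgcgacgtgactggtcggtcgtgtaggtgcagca
Cpt1a, chr19:3323051-3323350, plus strand: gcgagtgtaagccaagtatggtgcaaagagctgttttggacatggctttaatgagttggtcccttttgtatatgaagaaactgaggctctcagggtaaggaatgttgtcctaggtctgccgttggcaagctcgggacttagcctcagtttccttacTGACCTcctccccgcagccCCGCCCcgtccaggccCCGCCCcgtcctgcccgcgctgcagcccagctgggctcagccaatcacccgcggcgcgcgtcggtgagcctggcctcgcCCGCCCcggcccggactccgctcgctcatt
Bdh1 outer start, chr16:31422047-31422346, plus strand: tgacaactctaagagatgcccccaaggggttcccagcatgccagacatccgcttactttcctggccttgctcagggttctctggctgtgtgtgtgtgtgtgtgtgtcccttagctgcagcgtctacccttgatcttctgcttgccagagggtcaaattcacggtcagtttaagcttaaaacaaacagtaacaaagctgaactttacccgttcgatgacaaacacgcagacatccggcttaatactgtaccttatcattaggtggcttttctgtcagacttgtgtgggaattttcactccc
Bdh1 internal start, chr16:31428503-31428802, plus strand: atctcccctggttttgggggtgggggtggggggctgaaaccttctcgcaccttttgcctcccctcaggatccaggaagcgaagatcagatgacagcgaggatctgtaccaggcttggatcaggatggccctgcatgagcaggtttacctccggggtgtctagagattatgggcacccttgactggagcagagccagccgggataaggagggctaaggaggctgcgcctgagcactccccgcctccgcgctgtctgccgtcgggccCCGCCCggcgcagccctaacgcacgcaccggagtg
Ffar2 outer start, chr7:30823726-30824025, minus strand: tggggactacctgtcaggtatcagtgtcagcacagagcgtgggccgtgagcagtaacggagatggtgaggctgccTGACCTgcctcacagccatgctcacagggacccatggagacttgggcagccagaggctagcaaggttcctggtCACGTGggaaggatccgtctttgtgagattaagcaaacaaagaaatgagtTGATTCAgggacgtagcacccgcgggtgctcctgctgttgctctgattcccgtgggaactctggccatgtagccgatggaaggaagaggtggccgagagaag

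Of the 9 genes, 8 had a summit inside the gene or within 1 kb, where 74.5% of all protein-coding genes had one. The same 8 had a summit within 1 kb of an outer end, where 64.3% of all did. Of the 7 genes with an entry in the table of starts, 6 had a summit within 1 kb of an annotated start, where 64.5% of all genes with an entry did. With so few genes these counts do not set them apart from the background. The median of the strongest fold was 26.9 over the 9 genes and 17.4 over all protein-coding genes, with 0 for a gene without a summit. Over the protein-coding genes that had a summit it was 27.1. The 9 genes were far from alike, though: the transport and oxidation genes ranged from 12.1 to 66.5-fold, while the receptor genes had 8.23-fold and no summit.

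**Figure D1:**
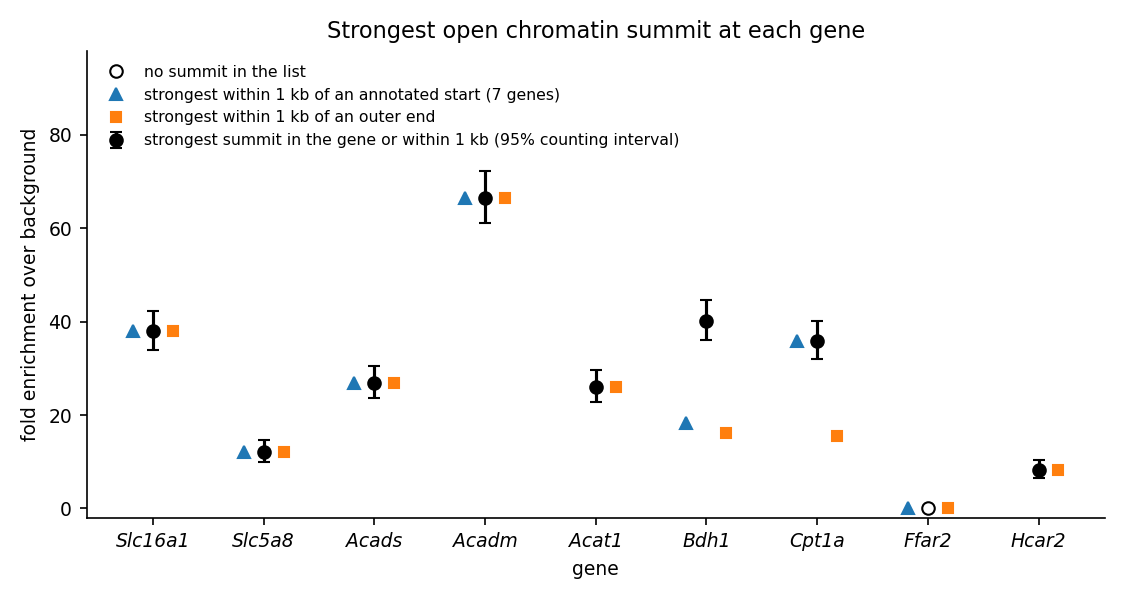
Strongest fold enrichment over background (vertical axis) at each of the 9 genes. Black points are the strongest summit in the gene or within 1 kb with its 95% counting interval, blue triangles the strongest within 1 kb of an annotated start, and orange squares the strongest within 1 kb of an outer end of the gene. Acadm is highest at 66.5-fold, Ffar2 has no summit, and at Bdh1 and Cpt1a the value at an outer end is below the strongest in the gene.

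Slc16a1 encodes MCT1, the proton-coupled monocarboxylate transporter that carries butyrate, lactate and ketone bodies. The gene (NCBI Gene 20501, chr3:104638664-104658462) had 13 summits in 8 regions inside it or within 1 kb. The strongest, 38.0-fold (34.0 to 42.4), lay 9 bp inside the annotated start, in a region of 2562 bp whose other summit, 490 bp inside, had 21.7-fold. A second group of summits stood near the far end of the gene, at 15.1-fold and 14.4-fold in a single region of 1791 bp. Between these, the 14.5-fold summit 5417 bp inside the gene was the strongest.

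Around Slc16a1, 26 regions away from gene ends were assigned to the gene, the most of the 9, and 324 protein-coding genes (1.50%) had as many or more. The count depended on the distance and the annotation used: it was 17 within 25 kb, and 12 when regions nearer to the end of a noncoding gene were not counted, a number that 3.32% of protein-coding genes reached in the same way. Upstream lay 8, inside the gene 6 and beyond its far end 12. The strongest reached 33.0-fold (29.3 to 37.1) at chr3:104620368-104621380, whose summit lay 17642 bp before the start, and its interval overlapped that of the start itself. The next was 26.1-fold (22.8 to 29.7), 22322 bp before the start and 15076 bp from the noncoding gene Gm26091. Of the 12 beyond the far end, 4 stood at 18.1 to 20.1-fold within 17029 bp of it, in regions of 1337 to 3129 bp with up to 5 summits. The gaps to the nearest coding genes were wide, 126745 bp to Lrig2 and 108942 bp to Tafa3. Counted against the 125.5 kb in which a region could be assigned to Slc16a1, the density was 20.7 per 100 kb, against 5.37 per 100 kb over the territory of all protein-coding genes, and 9.28% of genes had a density as high.

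Slc5a8 encodes SMCT1, the sodium-coupled transporter of butyrate in the apical membrane of colonocytes. The gene (NCBI Gene 216225, chr10:88885992-88929515) had the lowest value of the transport and oxidation genes. A single summit of 12.1-fold (9.86 to 14.6) stood 52 bp before the start, and the only other in the gene was 3.13-fold. Its interval lay below that of Slc16a1 (34.0 to 42.4). Of 5 assigned regions 4 were upstream, and the strongest had 10.7-fold (8.61 to 13.1), 24373 bp before the start. The interval of that distal region overlapped that of the start. The density was 6.35 regions per 100 kb.

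Cpt1a encodes the liver-type carnitine palmitoyltransferase of the outer mitochondrial membrane, which commits long-chain fatty acids to oxidation, a step that butyrate itself does not need. At this gene (NCBI Gene 12894, chr19:3322326-3385735) the widest region of the 67 was found, 5220 bp with 8 summits, at chr19:3321329-3326548. A summit of 35.8-fold (31.9 to 40.0) stood 59 bp inside the annotated start, and a summit of 35.5-fold (31.6 to 39.7) stood 2249 bp inside it. Their intervals overlapped nearly whole. The annotated start lies inside the outer bounds of the gene, so the 35.8-fold summit was 1034 bp from the outer end. Within 1 kb of that end the strongest was only 15.5-fold. By the same distance the region counts among the 7 assigned as away from gene ends, although it covers the start. Of the other 6, a 21.9-fold (18.9 to 25.3) region 11010 bp inside the gene was the strongest, and the other 5 had 3.48 to 7.88-fold. A further summit, 12.9-fold, stood 350 bp from an end of the noncoding gene Gm36532 inside Cpt1a and was therefore not assigned.

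**Figure D2:**
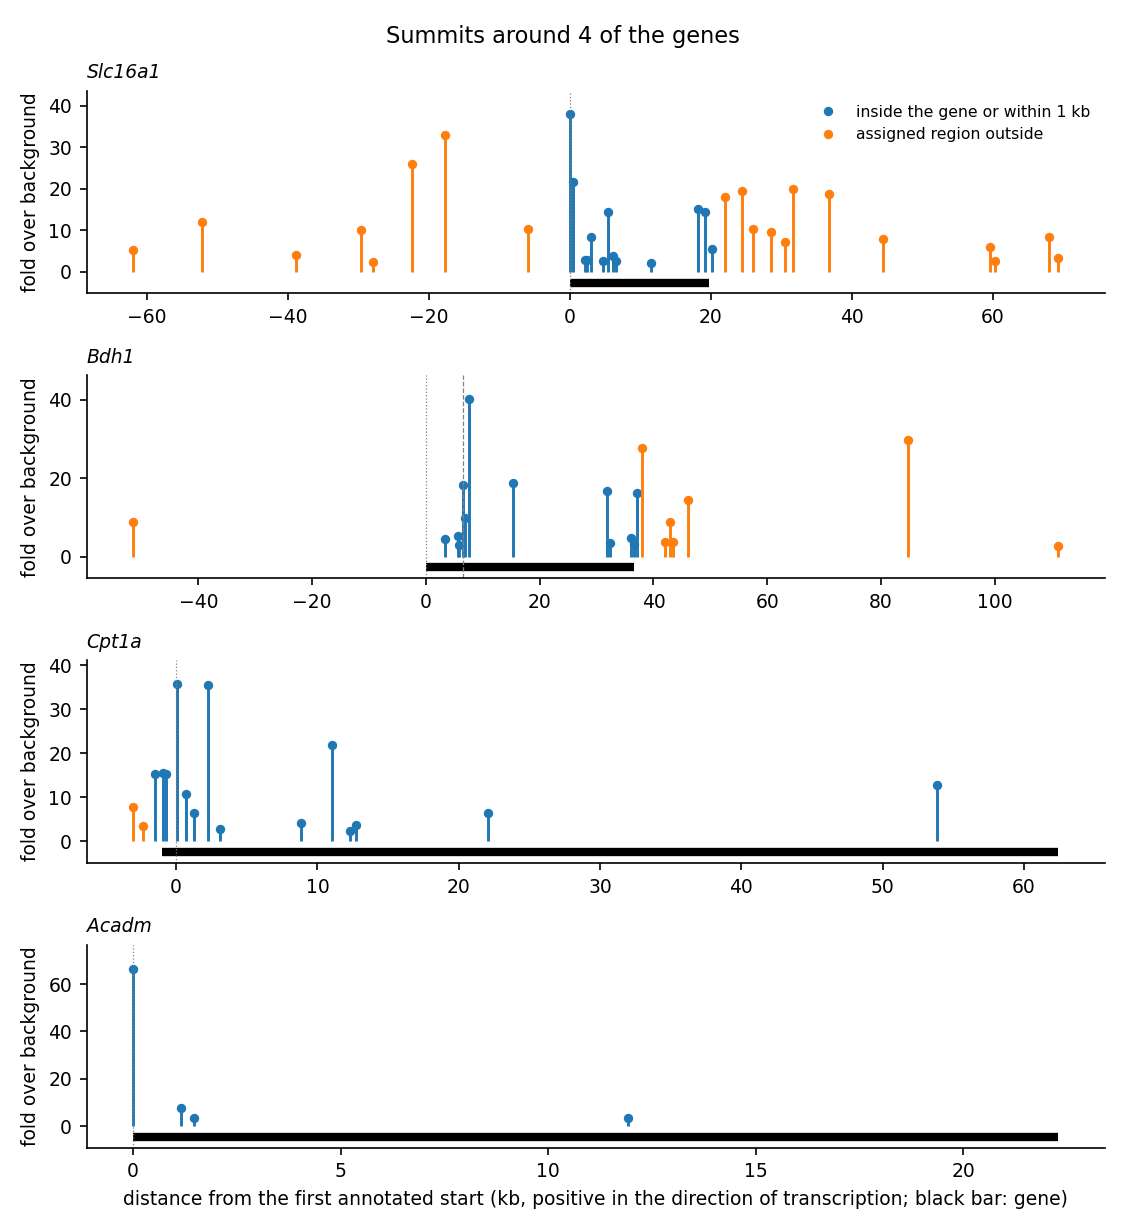
Summits at Slc16a1, Bdh1, Cpt1a and Acadm, by distance from the first annotated start (horizontal axis, kb, positive in the direction of transcription, a different scale in each panel) and fold over background (vertical axis). Blue summits are inside the gene (black bar) or within 1 kb, orange ones are the strongest of an assigned region outside, and the dashed line at Bdh1 is its internal start. Slc16a1 and Bdh1 are flanked by assigned regions of up to 33.0-fold and 29.7-fold, whereas Acadm has a single strong summit at its start.

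The enzymes of the mitochondrial steps had a simpler layout, a strong summit at 1 end and weaker ones inside. Acadm encodes the medium-chain acyl-CoA dehydrogenase (NCBI Gene 11364, chr3:153922353-153944643). Its summit of 66.5-fold (61.2 to 72.2), a pileup of 573, stood 3 bp before the annotated start. This interval lay above those of all the other members, and 3.0% of protein-coding genes had a strongest summit as high. The remaining Acadm summits had 3.25 to 7.77-fold, and its 1 assigned region, inside the gene, had 3.36-fold (2.27 to 4.81).

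Acads encodes the short-chain acyl-CoA dehydrogenase, which acts on butyryl-CoA (NCBI Gene 11409, chr5:115110299-115119346). It had 26.9-fold (23.6 to 30.6) at 78 bp inside the start. Its far end, 30 bp from the gene Rpl37rt, had no summit within 1 kb. The 1 region assigned to Acads, inside the gene, had 5.22-fold. Acat1 encodes the mitochondrial acetoacetyl-CoA thiolase, which cleaves acetoacetyl-CoA and also starts ketone body synthesis (NCBI Gene 110446, chr9:53580522-53610350). It had 26.1-fold (22.8 to 29.7) at 30 bp outside the outer end that faces Cul5. The 3 regions assigned to Acat1, all inside the gene, had 3.94, 6.49 and 10.9-fold. The intervals at Acads and Acat1 overlapped, so these genes could not be ordered, and both lay below Acadm and below Slc16a1, whose lower bound was 34.0. Acads sits in 7.7 kb of assignable sequence, Acat1 in 30.4 kb and Acadm in 37.4 kb, against a median of 39.7 kb over all protein-coding genes. In Acads and Acat1 the coding neighbours stood 30 to 4894 bp away.

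Bdh1 encodes the mitochondrial β-hydroxybutyrate dehydrogenase, which interconverts the ketone bodies acetoacetate and β-hydroxybutyrate. The gene (NCBI Gene 71911, chr16:31422297-31458901) has a pair of annotated starts. No summit lay within 1 kb of the outer start. The internal start had a summit of 18.2-fold (15.5 to 21.3) at 49 bp inside it. In the same region of 1913 bp, 1114 bp inside the internal start, stood the strongest summit of the gene, 40.2-fold (36.1 to 44.7), which was 91 bp from an end of the noncoding gene Gm15743. The files do not tell to which of the pair of genes that summit belongs. Its interval overlapped those of Slc16a1 and Cpt1a and lay below that of Acadm.

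Further summits inside Bdh1 reached 18.7-fold and 16.8-fold, 8796 bp and 25444 bp inside the internal start. Of its 11 assigned regions 3 were inside the gene and 8 outside, and 5 were left when regions nearer to a noncoding gene were not counted. The strongest, 29.7-fold (26.2 to 33.5) at chr16:31506648-31509478, lay 48101 bp beyond the far end of the gene and 1328 bp from an end of the noncoding gene Gm46560. A further one, 27.8-fold (24.4 to 31.6), lay 1300 bp beyond the far end. The coding neighbours were 107488 bp (Apod) and 159231 bp (Gm536) away. The density over the 148.0 kb of assignable sequence was 7.43 per 100 kb, a value that 34.5% of genes reached, where 9.38% reached the count of 11.

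**Figure D3:**
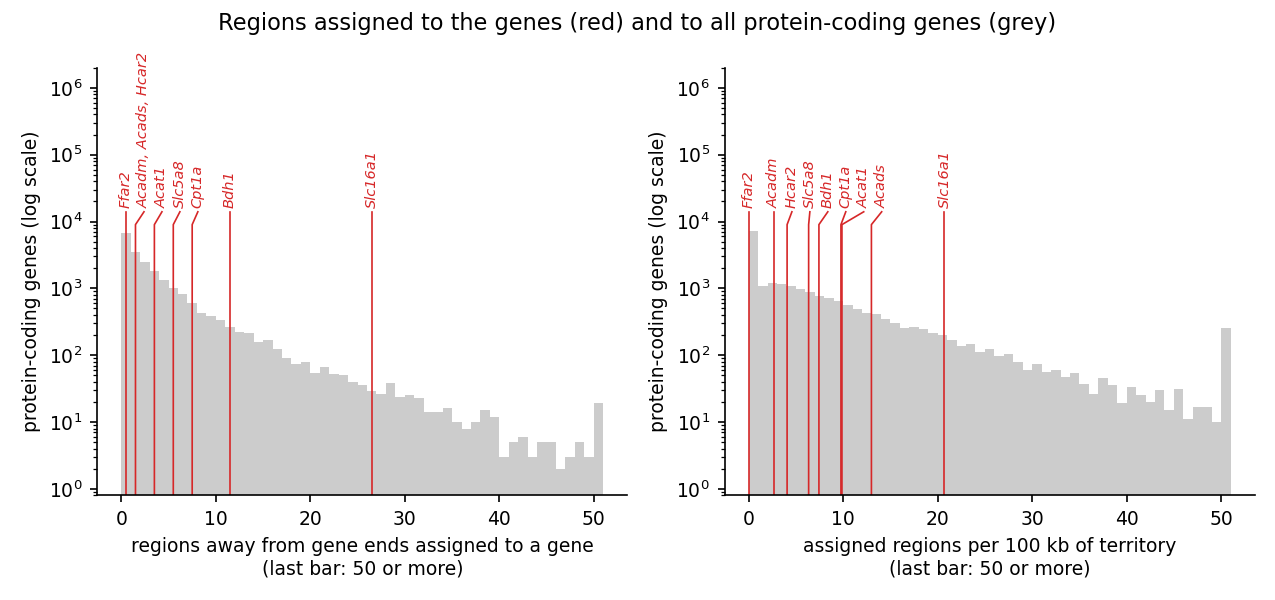
Number of regions away from gene ends assigned to a gene (left) and their number per 100 kb of assignable sequence (right), for the 9 genes (red lines) and for all protein-coding genes (grey bars, log scale, the last bar holding genes at 50 or more). Slc16a1 stands in the upper tail on both axes with 26 regions and 20.7 per 100 kb, while Ffar2 has 0.

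The receptor genes had the lowest strongest fold of the 9 in the gene or within 1 kb. Ffar2 encodes GPR43, a receptor of acetate, propionate and butyrate (NCBI Gene 233079, chr7:30818031-30823775). None of its 4 annotated starts had a summit within 1 kb, no region was assigned to it in 26.5 kb of assignable sequence, and the nearest summit, 3.94-fold, was 13705 bp from the gene on the side of Krtdap. Hcar2 encodes GPR109A, a receptor of β-hydroxybutyrate, niacin and butyrate (NCBI Gene 80885, chr5:123863570-123865516). It had 8.23-fold (6.44 to 10.4) at 852 bp outside 1 end and 3.25-fold (2.18 to 4.67) at 65 bp outside the other. The 1 region assigned to Hcar2, 8939 bp from the gene on the side of Kntc1, was stronger than both, at 14.4-fold (11.97 to 17.13). The interval of Hcar2 at its ends overlapped that of Slc5a8 and lay below those of the other 6 genes with a summit.

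Both receptors are also known from leukocytes, and Hcar2 from adipocytes. Of 8 leukocyte markers 4 had a summit at an outer end, Ly6g (22.0-fold), Itgam (4.99-fold), Csf1r (3.48-fold) and S100a8 (2.78-fold), while Ptprc, Cd3e, Cd79a and Csf3r had none. Of 4 adipocyte markers 2 did, Cidec (23.7-fold) and Plin1 (4.52-fold), while Adipoq and Lep had none. Of 4 liver markers 2 did, Apoa1 (16.5-fold) and Alb (5.56-fold), while Ttr and Cps1 had none. The background for these counts at an outer end is 64.3% of all protein-coding genes. Within 1 kb of an annotated start, Itgam, Plin1, Apoa1 and Alb had no summit, while Ly6g, S100a8 and Cidec had one. Csf1r has no entry in the table of starts. The part of such cells in the receptor values was not tested. In a bulk list, fewer cells that are open at a gene and less opening per cell cannot be told apart.

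Over the 9 genes, 55 regions away from gene ends were assigned, and 44 of them went to Slc16a1, Bdh1 and Cpt1a. Of the 9 genes 8 had at least 1, where 68.5% of all protein-coding genes did, and the median was 3 per gene, where it was 2 over all. The median fold was 7.88 over the 55 regions and 4.52 over all 81269 regions assigned to a protein-coding gene. At 20-fold or more stood 7 of the 55, namely 3 at Slc16a1, 2 at Bdh1 and 2 at Cpt1a, and 8.39% of all assigned regions. The start of Cpt1a is among these 7. So is the 27.8-fold region of Bdh1, which also holds a 16.2-fold summit 574 bp beyond the far end of that gene.

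CpG content was examined as a feature of the promoter sequence that the choice of genes did not use. The ratio of observed to expected CpG in the 300 bases was 1.06 at Slc16a1, a value that 3.23% of all 32619 windows reached. It was 0.763 at Cpt1a, 0.733 at Slc5a8, 0.579 at Acads and 0.459 at Acadm. At Bdh1 it was 0.561 at the internal start and 0.402 at the outer start, and at the Ffar2 starts it was 0.469, 0.138, 0.159 and 0.169. Of all windows with a ratio of at least 0.8, 94.9% had a summit within 1 kb of the start, against 57.3% at ratios from 0.4 to 0.6 and 16.6% below 0.2. The starts without a summit, the outer one of Bdh1 and those of Ffar2, had ratios of at most 0.469. Acadm had the highest fold at a ratio of 0.459, just below that of the first Ffar2 start (0.469), where no summit was called. Slc5a8 had 12.1-fold at a ratio of 0.733, while the median over all windows from 0.6 to 0.8 was 24.6-fold.

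**Figure D4:**
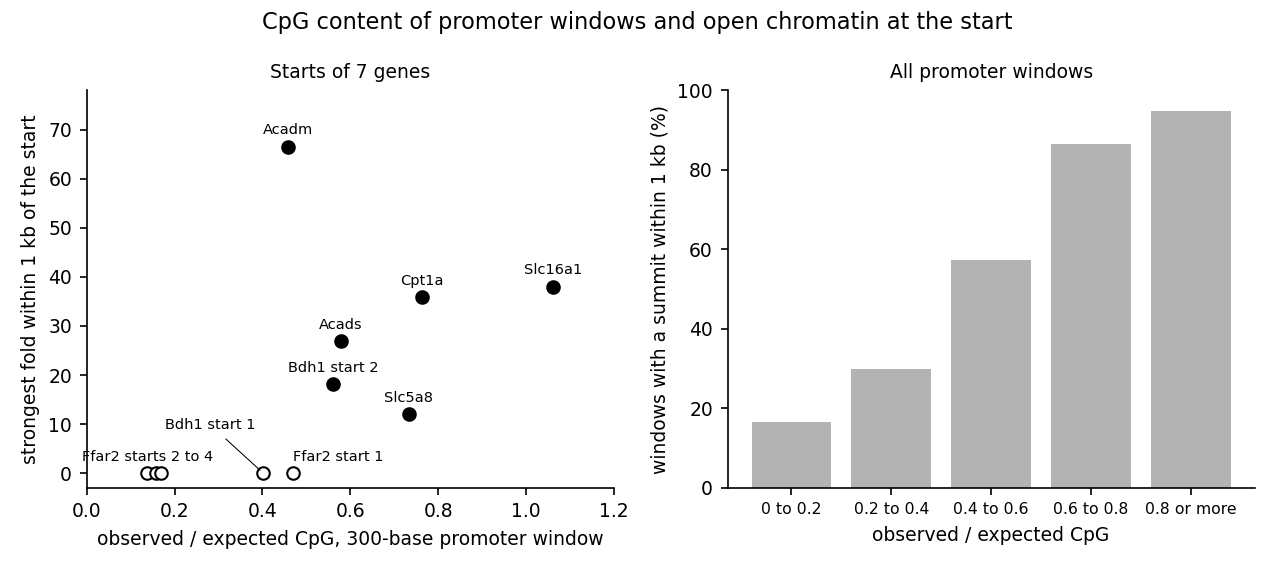
Left, observed over expected CpG in the 300-base promoter window (horizontal axis) and strongest fold within 1 kb of the start (vertical axis) for the 11 annotated starts of 7 genes, open points having no summit. Right, percent of all promoter windows with a summit within 1 kb, by CpG ratio. The percent rises from 16.6 in the lowest class to 94.9 in the highest, while Acadm reaches 66.5-fold at a ratio of 0.459.

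The 11 windows of the 7 genes were searched on both strands for the exact letters of 10 motifs. The GC box GGGCGG of KLF and SP factors was in 7 of 11 windows, and in 35.9% of all windows and 58.7% of those with a summit within 1 kb. Cpt1a and Slc5a8 had 3 matches each, at -75 to -70, -59 to -54 and 20 to 25 relative to the start in Cpt1a. The 7 include a pair of overlapping Ffar2 windows that share a match. Acadm, the outer start of Bdh1 and the first and second starts of Ffar2 had none. The hexamer AGGTCA, which nuclear receptors such as PPAR and HNF4 bind in pairs, was in 5 of 11 windows and in 16.2% of all. These were Acadm at -249 to -244, Cpt1a at -94 to -89 and 3 windows of Ffar2, a pair of which overlap and share the match. No window held the hexamer as a direct repeat with a single base between (the DR1 repeat, of which the hexamer is part, in 0.0399% of all windows).

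The E-box CACGTG was in 2 of 11 windows, at -200 to -195 in Slc16a1 and at -102 to -97 in the first Ffar2 window, and in 7.20% of all. The letters TGANTCA, searched for AP-1, the factor that T-5224 inhibits, were in 1 of 11 windows and in 7.85% of all. They allow any middle base, so both values can include forms other than the usual AP-1 site, TGACTCA or TGAGTCA. The 1 match, TGATTCA at -52 to -46, is such another form and is in Ffar2, where no summit was called. CRE (TGACGTCA, 1.80% of all windows), HNF4 (CAAAGTCCA, 0.478%), CDX (TTTATNG, 10.9%), STAT (TTCNNNGAA, 8.34%) and NF-κB (GGGANTTCC, 1.69%) had no match in the 11 windows. A match is a description of letters, and the regions away from the starts were not searched.

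The other genes of the pathway were counted at their outer ends in the same way, in 7 lists of 59 genes in all, of which 45 had a summit (76.3%, where 64.3% of all protein-coding genes did). The mitochondrial β-oxidation list had a summit at 13 of 14 genes, with a median of 36.6-fold. At outer ends the median was 16.2-fold over the 9 genes and 9.62-fold over all protein-coding genes. The 16.2-fold is the value of Bdh1, at its far end and not at a start. Within 1 kb of an annotated start the median was 26.9-fold over the 7 of the 9 genes with an entry. Over all protein-coding genes with an entry it was 12.1-fold. Etfdh, which passes electrons from these dehydrogenases to the respiratory chain, had 81.0-fold (75.1 to 87.3), at an end shared with 4930579G24Rik. Acadsb, a branched-chain acyl-CoA dehydrogenase, had 52.5-fold (47.8 to 57.6), at an end shared with Ikzf5. Eci2, an enoyl-CoA isomerase, had none at its outer ends but 22.0-fold at an annotated start. Hadha and Hadhb, the subunits of the trifunctional protein, share an end and a single summit of 36.6-fold. It was counted for both genes and sets the median of the list. The summits of Echs1, Etfb and Eci1 were also at ends shared with other coding genes (Paox, Cldnd2 and Rnps1).

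In the carnitine shuttle 6 of 7 were open at an end (median 30.6-fold). Slc22a5, the carnitine transporter, had 68.6-fold (63.2 to 74.4) and Cpt2, the inner membrane partner of Cpt1a, 47.7-fold (43.2 to 52.5). Cpt1b, the muscle form of Cpt1a, had none anywhere in the gene. Among ketone body genes 6 of 7 had one (median 24.1-fold). Acat2, the cytosolic thiolase, had 50.3-fold (45.7 to 55.3) and Aacs, which activates acetoacetate, 45.1-fold (40.7 to 49.8). Oxct2a, a testis form of the ketone-using transferase, had none.

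Transporters and their partners were less uniform, with 6 of 10 (median 6.72-fold). Bsg, the chaperone that brings MCT1 to the membrane, had 48.0-fold (43.5 to 52.8), and Slc26a3, the colonic chloride-bicarbonate exchanger, 11.8-fold (9.65 to 14.3). Slc16a4, Slc5a12, Emb and Abcg2 had none at an outer end. At an annotated start, however, Slc26a3 had 26.8-fold and Abcg2, an efflux pump, 18.3-fold. Of 8 acyl-CoA synthetase genes 3 had a summit. Acss2, the cytosolic acetyl-CoA synthetase, had 65.4-fold (60.1 to 71.0) and Acsm3, a synthetase of short and medium chains, 32.6-fold (28.9 to 36.6). Acsm1, Acsm2, Acsm4, Acsm5 and Acss3 had none anywhere in the gene. Of 5 related receptor genes 3 did (median 3.13-fold). Ffar4, a receptor of long-chain fatty acids, had 26.1-fold (22.8 to 29.7) and Gpr84, a receptor of medium-chain fatty acids, 11.7-fold (9.55 to 14.2). Within 1 kb of an annotated start Ffar4 had the same value, while Gpr84 had no summit. Ffar3 and Hcar1, the nearest coding neighbours of Ffar2 and Hcar2 on 1 side, had none.

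**Figure D5:**
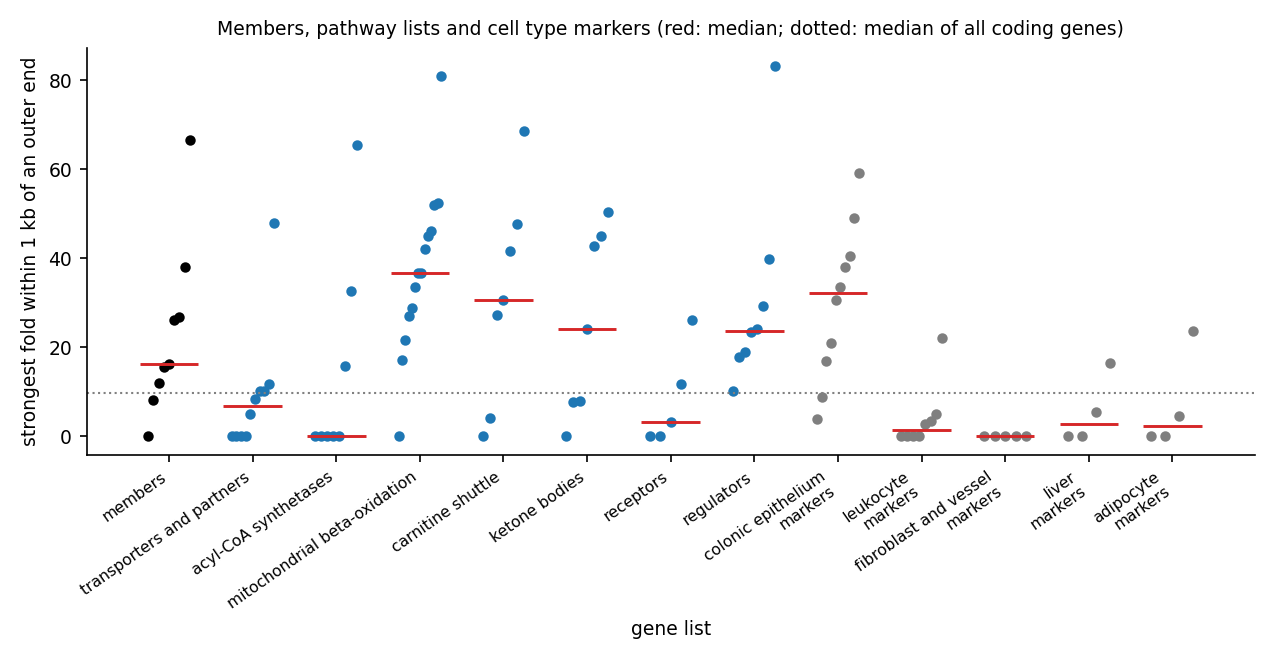
Strongest fold within 1 kb of an outer gene end (vertical axis, 0 where none was called) for the 9 genes (black), 7 pathway lists (blue) and 5 lists of cell type markers (grey), each point a gene and each red line a median. The β-oxidation genes have a median of 36.6-fold and the acyl-CoA synthetases one of 0, and the dotted line is the median of all protein-coding genes, 9.62-fold. The median over protein-coding genes with a summit at an outer end, 26.3-fold, is not drawn.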

How the data were processed

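Regions and summits were taken from 1 narrowPeak list on mm10. Bowtie2 and MACS2 are named in the submitters' processing notes, but the sources used here give no version, threshold or handling of duplicates. In every record the deposited score equalled 10 times −log10 q without its decimals. The lowest −log10 p deposited was 3.02 and the lowest −log10 q 1.51. The deposited fold enrichment is a ratio, on a linear scale, to an expected background. All 751 distinct fold values were whole multiples of 1 constant (largest deviation 0.000218), and the authors' −log10 p equalled that of a Poisson variable of mean 7.63 (within 6.03e-06 below 10-fold), from which the pileup was recovered. Copies of 1 molecule would make the intervals too narrow.

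Gene bounds, starts and promoter sequences came from RefSeq tables of GRCm38.p6. All 9 genes and all listed genes matched by symbol. Acat1 and Hcar2 have no entry in the promoter table. Because the strand of a gene is known only for genes in that table, outer ends were used for all genes and starts where given. Assignable sequence was measured on a 100 bp grid. The rule for named genes took the 9 genes and, in each pathway list, the 2 strongest and those without a summit at an outer end. The genes and lists were chosen with earlier results of these data known. Sharing of reads between related copies, such as the Slc16a, Acsm and Ly6 families, was not tested. Python 3.11.15, pandas 2.3.3 and scipy 1.17.1 were used, the assignment and motif search were tested on simulated data, and no p-value was computed because each group has 1 library.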

Additional observations from a re-analysis of the deposited data

How the results depend on the processing

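No paired analysis was possible because each group has 1 library and the peak list gives no value for a library. Of 91 alternative values, 80 stayed within the counting interval, or within 1.5 times for counts, and 11 moved. Part of the 80 could not have moved, so the tally does not measure robustness. Assigned regions were already counted by their strongest summit. The strongest summit of each gene that had one passed the cut on −log10 q, the lowest being 40.4 at Hcar2. The 56 summits inside or within 1 kb of the 9 genes fell to 36 at a −log10 q of at least 10 and to 32 when only the strongest summit of a region was kept. The 55 assigned regions fell to 35 when the nearest end of any annotated gene was used, all of it at Slc16a1 (12, against 26) and Bdh1 (5, against 11). They were 43 and 51 within 25 and 50 kb (17 and 24 at Slc16a1, 8 and 9 at Bdh1) and, in a setting chosen after seeing the data, 64 when only protein-coding ends were avoided. With the gene bounds alone the strongest fold was 3.13 at Slc5a8, 7.77 at Acadm, 10.9 at Acat1 and 0 at Hcar2, since their summits lie outside those bounds. At annotated starts only, 1 of 5 receptor genes and 5 of 6 regulator genes with an entry had a summit, where 3 of 5 and 8 of 8 had one at an outer end. In windows from 150 before to 50 after the start, AGGTCA was in 3 and CACGTG in 1 of 11. Depth limits the weak summits most: at Hcar2 and Slc5a8 the 95% intervals span 6.44 to 10.4 and 9.86 to 14.6.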

Other observations

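All 8 genes of the list of regulators of fatty acid oxidation had a summit at an outer end, where 64.3% of all protein-coding genes did. Their median was 23.8-fold, against 26.3-fold over the protein-coding genes with such a summit. Esrra, an orphan nuclear receptor of mitochondrial genes, was highest with 83.1-fold (77.2 to 89.4), at an end shared with Catsperz. Ppard followed with 39.9-fold (35.8 to 44.3). Ppargc1a had 10.2-fold at an outer end but no summit within 1 kb of an annotated start. Away from gene ends, Pparg was assigned 35 regions, Ppara and Ppargc1a 32 each, Ppargc1b 28, Ppard 24, Hnf4a 23 and Hnf4g 20, while Esrra had 1. Their median was 26 per gene, the count of Slc16a1, where it was 2.5 in the β-oxidation list, 1 in the carnitine shuttle and 2 over all protein-coding genes. Per 100 kb of assignable sequence the median was 21.0 in the regulators, 9.15 in the β-oxidation list, 10.1 in the carnitine shuttle and 3.95 over all protein-coding genes with such sequence. The regulators ranged from 5.75 at Hnf4g to 34.6 at Ppard, and Esrra, with its 1 region in 4.5 kb, had 22.2. No test was made of these differences.

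Among the other pathway genes, Slc26a3 (20 regions), Abcg2 (16) and Oxct1 (15), which encodes the transferase that lets cells use ketone bodies, had the most assigned regions outside the regulator list. These 3 were picked after their counts were seen. Per 100 kb of assignable sequence Slc26a3 had 25.2, Abcg2 7.17 and Oxct1 6.37, against 5.37 over the territory of all protein-coding genes.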
